A study of Mus musculus with 43 samples.

Results

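Hyperoxia was compared with normoxia in sorted dendritic cells (DCs) of the newborn mouse lung. The members were the 5 libraries of hyperoxic DCs and the 6 libraries of normoxic DCs, 11 of the 43 libraries of the series, chosen by the source named in their labels. All animals were newborn C57BL/6 mice. The hyperoxic pups breathed oxygen at an FiO2 of 0.9 for 1.5 days, and the control pups were kept in normoxia for as long. DCs were sorted from digested, perfused lungs as MHCIIhi CD11chi cells; alveolar macrophages, Ly6Chi cells and Ly6Clo cells from such lungs made up the other 32 libraries. Newborns of several litters were pooled before being assigned at random, and each library still carries a litter number: litter 93 gave 2 hyperoxic and 2 normoxic DC libraries, litter 100 gave 1 and 2, and litter 108 gave 2 and 2. The labels tie no library to a pup, so a p-value measures the spread between libraries, which may be partly technical. The gate covers all DC subsets together, and in such bulk RNA fewer cells of a type and less RNA per cell cannot be told apart.

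Conventional DCs take up antigen in the airway wall and carry it to the draining lymph node. The cDC1 subset cross-presents antigen to CD8 T cells, the cDC2 subset mainly primes CD4 T cells, and both pass through a mature, migratory state in which they switch on CCR7, the receptor that guides them to the node, and the actin bundler fascin. High oxygen raises the load of reactive oxygen species, to which cells respond through NRF2, a transcription factor that drives antioxidant genes, while the hypoxia-inducible factors (HIFs) are degraded when oxygen is plentiful.

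The libraries carried the markers of their label. On a scale of counts per 1000000 (CPM) set over all 43 libraries, H2-Ab1, an MHC class II chain, had a mean of 1188 CPM in normoxic DCs against 96.1 to 176 CPM in the other 3 normoxic populations. Flt3, the growth factor receptor of DCs, had a mean of 287 CPM in normoxic DCs and at most 14.4 CPM in the others, and Zbtb46, a transcription factor of conventional DCs, had 164 CPM and at most 11.2 CPM. Itgax, which encodes CD11c, did not set DCs apart. Its mean of 158 CPM lay below those of alveolar macrophages, 209 CPM, and Ly6Clo cells, 170 CPM. The sort gated alveolar macrophages as CD11chi too. Markers of other cells were present as well. The 10 listed B cell genes summed to 671 to 1451 CPM in normoxic and 946 to 1485 CPM in hyperoxic DC libraries, and plasmacytoid DC genes to 512 to 764 CPM and 575 to 993 CPM. Listed monocyte-derived cell and macrophage genes were abundant too. On the scale over all 43 libraries, their median sum was 6494 CPM in normoxic DCs. In the other normoxic populations it was 4770 (alveolar macrophages), 5887 (Ly6Chi) and 8230 CPM (Ly6Clo).

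DC libraries held 1152853 to 2403861 counts. Hyperoxia replicate 3, the only hyperoxic DC library of litter 100, stood apart from the other hyperoxic ones: its median correlation of log2 CPM with the other DC libraries was 0.882, against 0.911 to 0.932 for the other 4, and its levels of interferon and inflammatory genes were far above theirs. Normoxia replicate 3 of the same litter had the lowest correlation of all, 0.861. Most gene lists are therefore given with and without hyperoxia replicate 3, and estimates of the DC fit that it moves by more than 1.5 times are given both ways. Fewer genes were detected in hyperoxic libraries, 15676 ± 651 (SD, n = 5), than in normoxic ones, 16095 ± 214 (SD, n = 6), a difference with p = 0.12 in an exact two-sided permutation test within litters, whose smallest possible p was 0.00926.

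No gene passed the test for a difference between hyperoxic and normoxic DCs. Of 11274 genes tested with litter as a term, edgeR's quasi-likelihood test called 0 (0%) at an adjusted p under 0.05. It gave 998 genes an unadjusted p under 0.05 (8.85%), of which 463 were higher (4.11%) and 535 lower (4.75%) in hyperoxia. DESeq2 called 24 genes (0.252% of the genes it gave an adjusted p) and limma voom called 0. In counts simulated for the same 2 groups, edgeR recovered 92% of well-counted genes changed by 1 on the log2 scale and 100% of those changed by 2. It also called 9 unchanged genes. The simulation held no litter effect and no outlying library, so these shares are not the power of the test in the real libraries. The count of called genes depended on single libraries. Without hyperoxia replicate 4, 23 genes were called (0.202%), while without hyperoxia replicate 3 or any other single library 0 were called. In the following, "higher" and "lower" describe estimates that did not pass the adjusted test unless a call is named.

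The gene with the smallest p was Lpl, which encodes lipoprotein lipase, the enzyme that frees fatty acids from circulating triglycerides. Its levels in the 5 hyperoxic libraries were 261, 252, 228, 247 and 178 CPM for replicates 1 to 5. In the 6 normoxic libraries they had a lowest value of 97.0, a median of 138 and a highest value of 146 CPM. Every hyperoxic library lay above every normoxic one, and the hyperoxic library nearest to the normoxic range was replicate 5. The log2 fold change was 0.85 with a standard error (SE) of 0.13 and an edgeR adjusted p of 0.0624, and it ran from 0.78 to 0.92 when each library was left out in turn.

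Over all genes tested, 20 lay wholly higher (0.177%) and 32 wholly lower (0.284%) in hyperoxia. With groups this small and so many genes, some separate by chance, so separation alone does not mark a gene as changed. Igf1, an insulin-like growth factor, was among the higher ones. It measured 107, 105, 95.4, 72.6 and 75.7 CPM in hyperoxia replicates 1 to 5, and 29.7, 41.6 and 71.3 CPM as the lowest, median and highest normoxic values. The 2 hyperoxic libraries of litter 108 lay close to the highest normoxic library, and the others well above it. This gave a log2 fold change of 1.0 (SE 0.22, edgeR adjusted p = 0.362). Hgf, the hepatocyte growth factor, was the other growth factor with separated groups, at 20.2, 11.1, 17.1, 11.3 and 18.3 CPM in hyperoxia against 3.96 to 10.5 CPM in normoxia. Its log2 fold change was 1.08 (SE 0.31) and 0.89 without hyperoxia replicate 3. Of the 19 tested genes listed as growth factors and remodelling factors, 9 were higher and 10 lower, with a median log2 fold change of -0.01 beside 0.00 over all genes. Besides Igf1 and Hgf, Mmp19, Lgals3, Plaur and Spp1 were higher with an unadjusted p under 0.05, and no member was lower at that level. Over all genes, 4.11% were higher and 4.75% lower at it. Leaving out hyperoxia replicate 3, the list had 13 higher and 6 lower at a median of 0.12. Then 2 were higher at an unadjusted p under 0.05 and 1 lower, beside 5.1% of all genes in either direction. Mmp19 and Plaur then went from 1.0 to 0.60 and from 0.55 to 0.22.

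Tfec, a transcription factor of the MITF family expressed in macrophages, reached 65.5, 58.2, 75.9, 89.7 and 113 CPM in hyperoxia, and 22.6, 36.6 and 79.4 CPM as the lowest, median and highest normoxic values. The groups overlapped, since 2 of the hyperoxic libraries were above all normoxic ones and 3 were not. A log2 fold change of 0.81 (SE 0.17, edgeR adjusted p = 0.362) went to 0.59 when hyperoxia replicate 3 was left out. Sort1, which encodes the sorting receptor sortilin, measured 57.7, 49.9, 94.6, 96.0 and 70.5 CPM against a normoxic range of 26.9 to 62.6 CPM, with a log2 fold change of 0.64 (SE 0.15). Creg1, a secreted lysosomal glycoprotein, was higher by 0.42 (SE 0.09), and Gpr65, a proton-sensing receptor, by 0.53 (SE 0.11) with groups that did not overlap. Adamdec1, a disintegrin metalloproteinase of tissue macrophages and DCs, also had groups that did not overlap, at 136 to 265 CPM in hyperoxia and 34.8 to 132 CPM in normoxia.

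For several genes of this kind, hyperoxia replicate 3 raised the estimate, which kept its direction without that library. Ptges, the inducible prostaglandin E synthase, measured 8.40, 4.16, 224, 10.0 and 44.9 CPM in hyperoxia, and 0.548 to 6.04 CPM in normoxia. Replicate 3 was highest by far and replicate 2 lay within the normoxic range. The log2 fold change of 3.87 (SE 0.74) was 2.48 without that replicate. Arg2, the mitochondrial arginase, had 4.48, 8.32, 80.8, 21.7 and 36.0 CPM against 3.36 to 6.73 CPM, and its log2 fold change of 2.42 (SE 0.51) was 1.68 without replicate 3. For Gpr84, a receptor for medium-chain fatty acids, the log2 fold change went from 1.62 to 0.78, for Blvrb, biliverdin reductase B, from 0.92 to 0.51, and for Tnfaip2 from 0.94 to 0.51. DESeq2 called all 5 of these genes with every library included.

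**Figure D1:**
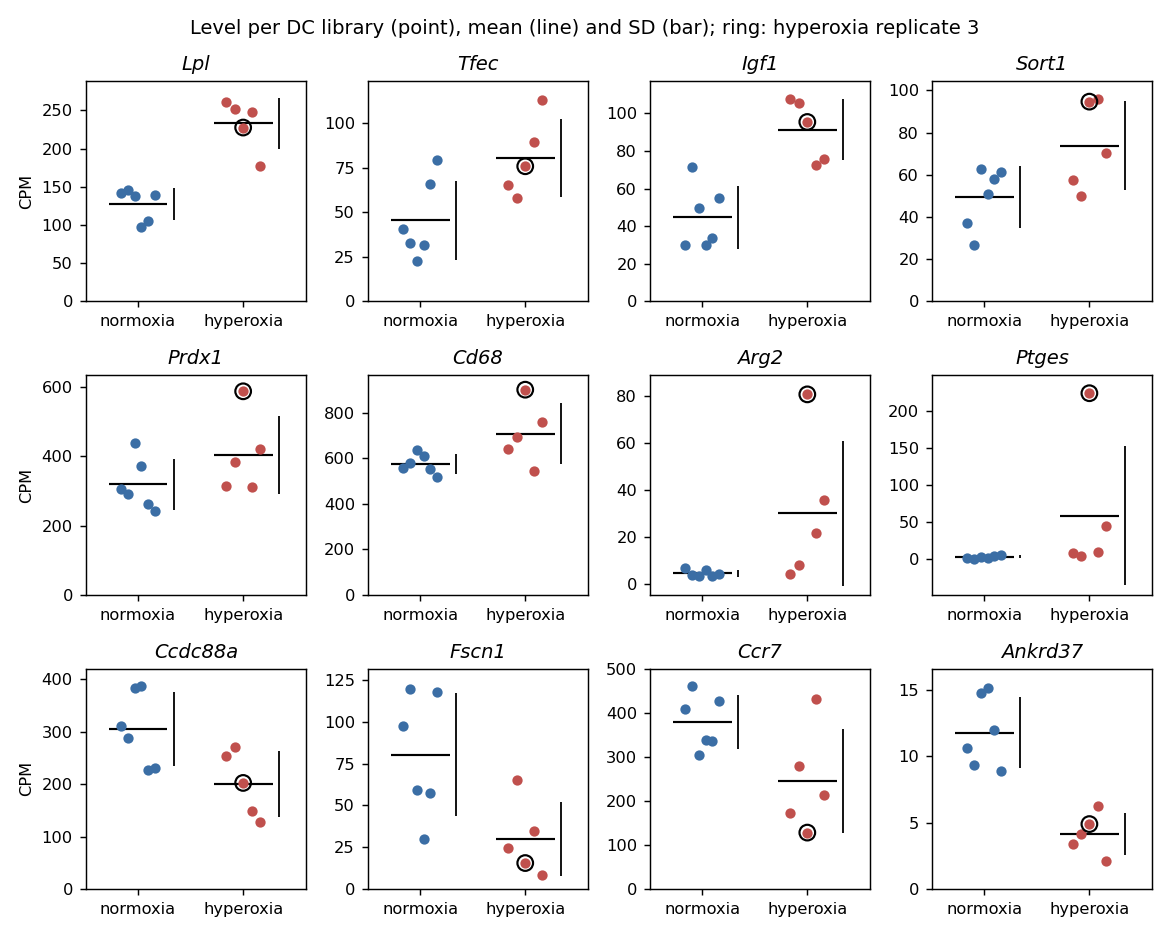
CPM of 12 genes (vertical axes) in the 6 normoxic and 5 hyperoxic DC libraries; points are libraries, lines means, bars SDs, and the ring marks hyperoxia replicate 3. Lpl, Igf1 and Ankrd37 show no overlap between the groups, while the hyperoxic means of Arg2 and Ptges are raised most by the ringed library at 80.8 and 224 CPM.

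Among lower genes, Ccdc88a, which encodes the actin-binding protein girdin, had 253, 270, 202, 148 and 128 CPM in hyperoxia and 228, 300.0 and 387 CPM as the lowest, median and highest normoxic values. The litter 93 libraries lay within the normoxic range and the other 3 below it. Its log2 fold change was -0.57 (SE 0.12, edgeR adjusted p = 0.362). Adam23, a non-catalytic disintegrin, was separated, at 10.6, 11.1, 3.26, 13.8 and 3.65 CPM against 17.4 to 50.4 CPM, with a log2 fold change of -1.72 (SE 0.34). Fxyd2, a regulatory subunit of the sodium-potassium pump, was separated as well, at 5.54 to 12.9 CPM against 17.3 to 77.4 CPM. Map3k14, which encodes NIK, the kinase at the head of the non-canonical NF-kB pathway, was separated at 38.6, 43, 46.5, 38.4 and 27.7 CPM against 47.6 to 120.0 CPM, although the nearest values of both groups lay close together. Its log2 fold change was -0.75 (SE 0.18, edgeR adjusted p = 0.362). Utrn, the dystrophin homologue utrophin, was lower by a log2 fold change of -0.83 (SE 0.18). Il2ra, the interleukin 2 receptor alpha chain that mature DCs carry, had 0.816 to 6.26 CPM in hyperoxia and 6.03 to 17.3 CPM in normoxia, so that 1 hyperoxic library overlapped the lowest normoxic one.

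Genes of mature, migratory DCs were mostly lower in hyperoxia. Of the 26 listed members, all tested, 7 were higher and 19 lower, where 50.1% of all genes were higher, and the median log2 fold change was -0.33 beside 0.00 over all genes. At an unadjusted p under 0.05, 12 were lower and 1 higher, where 4.75% and 4.11% of all genes were. None passed edgeR's adjusted test, and DESeq2 called 1, Ccr7. Without hyperoxia replicate 3 the median was -0.39, with 23 lower and 3 higher. Then 8 were lower at an unadjusted p under 0.05, a level that 5.1% of all genes reached in either direction. With the number of genes detected in each library as a covariate, 4 members were lower at an unadjusted p under 0.05 and 0 higher, where 3.63% of all genes reached that level in either direction, and the median was -0.30. In the fit of all 43 libraries these numbers were 4, 1 and -0.32, beside 3.89% of all genes. The median stayed between -0.39 and -0.27 when any 1 DC library was left out. Within each of the 3 litters, 15 of the members were lower in hyperoxia and 1 was higher; estimates of 1 sign in all 3 litters, in either direction, were found for 31.2% of all genes. The value for litter 100 rests on its single hyperoxic library, replicate 3.

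Ccr7 measured 174, 281, 128, 431 and 213 CPM in hyperoxia replicates 1 to 5, and 304, 374 and 460 CPM as the lowest, median and highest normoxic values. Replicates 1, 2, 3 and 5 lay below all normoxic libraries, and replicate 4 within their upper range. In edgeR this was a log2 fold change of -0.75 (SE 0.24, edgeR adjusted p = 0.475), -0.60 without hyperoxia replicate 3 and -1.01 without hyperoxia replicate 4. Fscn1, which encodes fascin, had 24.6, 65.1, 15.5, 34.6 and 8.35 CPM against 29.7, 78.4 and 120 CPM in normoxia. The groups overlapped through hyperoxia replicates 2 and 4. The log2 fold change of -1.61 (SE 0.41) was the lowest of the list, and was -1.65 without hyperoxia replicate 3.

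Relb, the non-canonical NF-kB subunit that DC maturation needs, had 60.5, 77.6, 48.1, 118 and 54.8 CPM in hyperoxia and 88.5 to 130.2 CPM in normoxia, and here too replicate 4 alone lay within the normoxic range. Its log2 fold change was -0.66 (SE 0.21). Ccl22, a chemokine by which mature DCs attract T cells, was lower by -0.80 (SE 0.26), and Ccl17, which shares its receptor, by -0.44 (SE 0.18). Cacnb3, a calcium channel subunit, was lower by -1.04 (SE 0.35), the retinaldehyde dehydrogenase Aldh1a2 by -1.10 (SE 0.40) and the maturation marker Cd83 by -0.41 (SE 0.15), which was -0.24 without hyperoxia replicate 3. Among the 7 higher members, Socs1, a brake on cytokine signalling, had 1.40 (SE 0.58), with 155 CPM in hyperoxia replicate 3, and 0.40 without that library. The costimulatory genes Cd86 and Cd40 and the adhesion molecule Icam1 had log2 fold changes of 0.09, 0.08 and 0.11, and without hyperoxia replicate 3 these were 0.04, -0.42 and -0.07, so that Cd40 and Icam1 changed sign. H2-M2, a class Ib MHC gene, was not on the list. It had 34.1, 67.2, 60.4, 114 and 48.6 CPM in hyperoxia against 108 to 190 CPM in normoxia, again with replicate 4 alone inside the normoxic range, and edgeR gave a log2 fold change of -1.20 (SE 0.29). DESeq2 called it.

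Without hyperoxia replicate 4, mature DC genes were among the calls. That library alone lay inside the normoxic range for Ccr7, Relb and H2-M2, so calls made without it are no separate support for a change in these genes. Of the 23 genes edgeR then called, 16 fell and 7 rose, and Ccr7, Ccl22, Cacnb3 and Relb, which fell, were 4 of the 26 listed mature DC genes, beside 0.202% of all genes. At an unadjusted p under 0.05, 13 mature DC genes were then lower and 1 higher, while 12.2% of all genes reached that level in either direction. Traf1, an NF-kB signalling adaptor on the NF-kB list, was also called. That library held 2373600 counts and 16617 detected genes, the most of any hyperoxic DC library, and the part of depth in these calls was not tested.

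The general and subset genes of conventional DCs leaned the same way. Of 12 pan-DC genes, 4 were higher and 8 lower (median log2 fold change -0.23), of 13 cDC1 genes 2 and 11 (median -0.25), and of 12 tested cDC2 genes 3 and 9 (median -0.19). At an unadjusted p under 0.05, 4, 4 and 3 of them were lower and none higher, where 4.75% of all genes were lower. With a covariate for detected genes these counts were 0, 1 and 0, beside 3.63% of all genes in either direction, and the medians -0.14, -0.10 and -0.14. In the fit of all 43 libraries the counts were 0, 1 and 0, beside 3.89% of all genes. Part of this came from hyperoxia replicate 3: Flt3 had 126 CPM there and 181 to 274 CPM in the other hyperoxic libraries, against 236 to 352 CPM in normoxia, and its log2 fold change of -0.47 (SE 0.16) was -0.25 without it. Zbtb46 was at 44.0 CPM in that library and at 73.1 CPM in replicate 5, with 141, 148 and 182 CPM in the other 3 and 139 to 209 CPM in normoxia, and its log2 fold change of -0.63 (SE 0.28) was -0.35 without hyperoxia replicate 3. Without hyperoxia replicate 3, the counts at an unadjusted p under 0.05 were 0, 1 and 3, beside 5.1% of all genes in either direction. The cDC1 list then had 6 higher and 7 lower at a median of -0.12. As a sum, the cDC2 list did not set DCs apart from the other populations. On the scale over all 43 libraries, its normoxic median was 1784 CPM in DCs, 1964 in Ly6Chi, 1762 in Ly6Clo and 1280 in alveolar macrophages. Its lean is thus not particular to genes of conventional DCs.

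Within the subsets the canonical surface markers varied in different ways. Xcr1, the chemokine receptor of cDC1, had a log2 fold change of 0.00 (SE 0.25) and 121 ± 29.4 CPM (SD, n = 5) in hyperoxia against 128 ± 57.4 CPM (SD, n = 6). Its estimate was 0.19 without hyperoxia replicate 3. Clec9a, the cDC1 receptor for dead cells, was lower by -0.43 (SE 0.21), or -0.23 without that library, and Tlr11 and Tlr3, Toll-like receptors that cDC1 express, by -0.60 (SE 0.18) and -0.47 (SE 0.19). Of cDC2 genes, the C-type lectins Clec10a, Mgl2 and Cd209d were lower by -0.66 (SE 0.20), -0.44 (SE 0.14) and -1.03 (SE 0.36), while Sirpa had 0.22 (SE 0.13), which was 0.00 without hyperoxia replicate 3. Plasmacytoid DC genes had 8 higher and 2 lower of 10 tested, at a median of 0.18 that ranged from -0.02 to 0.42 when single libraries were left out.

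Genes of antigen presentation had small estimates. H2-Ab1 measured 1175, 1435, 1500, 900.02 and 1102 CPM in hyperoxia and 870.05, 1193 and 1662 CPM as the lowest, median and highest normoxic values, with full overlap and a log2 fold change of 0.07 (SE 0.09). The 12 MHC class II genes had a median log2 fold change of 0.05, with the protease Ctss at 0.26 (SE 0.10) and the class II transactivator Ciita at -0.24 (SE 0.10). Of 13 MHC class I and peptide loading genes, 12 were higher and 1 lower, at a median of 0.20. The proteasome subunit Psmb10 and the heavy chain H2-K1 were higher at an unadjusted p under 0.05, where 4.11% of all genes were. That median was 0.07 without hyperoxia replicate 3, with 9 higher and 4 lower, and Psmb10 and H2-K1 went from 0.36 to 0.17 and from 0.27 to 0.16. The highest counts in these libraries stayed under 2 per exonic base, a pattern that would compress the levels of the most abundant transcripts, MHC class II genes among them.

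**Figure D2:**
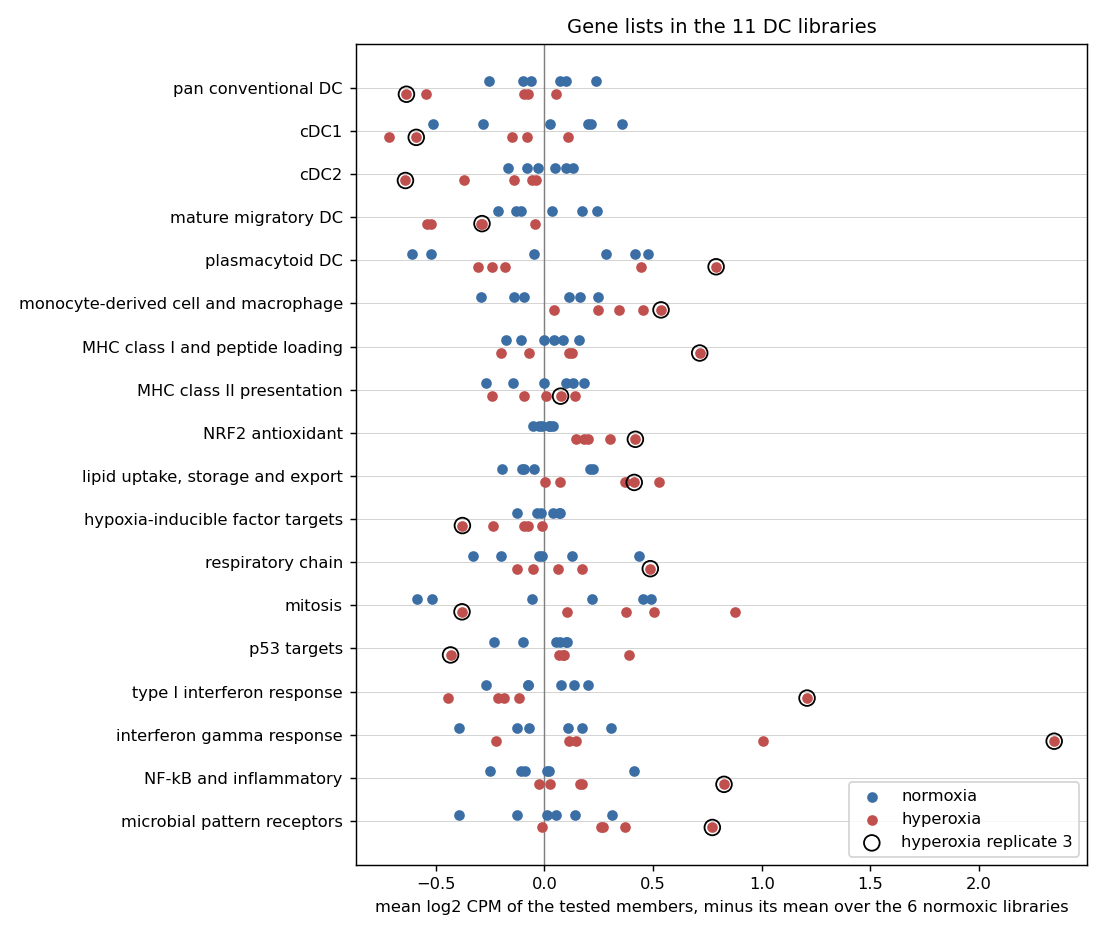
Mean log2 CPM of the tested members of 18 gene lists in each of the 11 DC libraries, relative to the mean of the 6 normoxic libraries (horizontal axis); the ring marks hyperoxia replicate 3. The NRF2 list shows no overlap between groups, and the ringed library is highest for the interferon, NF-kB and microbial pattern receptor lists.

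Monocyte-derived cell and macrophage genes lay on the other side of the DC genes. All 15 tested members were higher in hyperoxia, with a median log2 fold change of 0.32 beside 0.00 over all genes. At an unadjusted p under 0.05, 7 were higher and 0 lower, where 4.11% of all genes were higher. None passed the adjusted test. In 11 of the 15 the estimate was higher within each of the 3 litters. Without hyperoxia replicate 3 all 15 were still higher, but the median was 0.18. Then 1 had an unadjusted p under 0.05, where 5.1% of all genes did in either direction. With a covariate for detected genes, 13 were higher and 2 lower at a median of 0.14, and none had an unadjusted p under 0.05.

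Cd68, a lysosomal protein of phagocytes, measured 639, 695, 901, 545 and 761 CPM in hyperoxia, and 518, 568 and 635 CPM as the lowest, median and highest normoxic values. Replicate 4 lay within the normoxic range and the other 4 above it. The lowest values were those of normoxia replicate 6 and hyperoxia replicate 4, the libraries with the most counts of their groups. The highest were those of normoxia replicate 3 and hyperoxia replicate 3, which held the fewest. Cd68 was higher by 0.33 (SE 0.10) and 0.25 without hyperoxia replicate 3. C1qb, a chain of complement C1q, had 644, 758, 982, 534 and 775 CPM against 531 to 613 CPM, again with replicate 4 alone in the normoxic range, and its log2 fold change of 0.36 (SE 0.11) was 0.24 without hyperoxia replicate 3. C1qc and C1qa were higher by 0.40 (SE 0.14) and 0.31 (SE 0.14), and by 0.19 and 0.08 without that library. Fcgr1, the high-affinity IgG receptor CD64, was higher by 0.65 (SE 0.24), which rested on 648 CPM in replicate 3 and was 0.25 without it. The macrophage antigen Adgre1 (F4/80) was higher by 0.32 (SE 0.15), or 0.19 without replicate 3, and Apoe by 0.21 (SE 0.09). Summed over the list, the markers reached 6364 to 7034 CPM in normoxic and 6233 to 9412 CPM in hyperoxic libraries. The parts that the makeup of the sorted cells and the depth of the libraries had in these values were not tested.

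Alveolar macrophage markers had 6 members higher and 4 lower of 10 tested. That list summed to 627 to 1051 CPM in normoxic and 694 to 1209 CPM in hyperoxic DC libraries, and its defining gene Siglecf had a log2 fold change of -0.78 (SE 0.46). Of the 11 tested classical monocyte genes, 8 were higher and 3 lower (median 0.15), and 5 and 6 without hyperoxia replicate 3 (median -0.01). Of 12 non-classical monocyte genes, 3 were higher and 9 lower (median -0.25), and 5 and 7 without that library (median -0.09). Neutrophil genes had 9 higher and 1 lower of 10, at a median of 0.52 that was -0.13 without normoxia replicate 2 and 0.89 without hyperoxia replicate 3. Their summed level ranged from 345 to 1566 CPM in normoxia and from 436 to 1128 CPM in hyperoxia. DESeq2 called 1 neutrophil gene, S100a8, whose groups overlapped. Its edgeR log2 fold change was 0.64 (SE 0.15), and 0.79 without hyperoxia replicate 3. Of the tested epithelial genes 10 of 11 were lower at a median of -0.31, but 4 of 11 without hyperoxia replicate 3, where the median was 0.28. Of the endothelial genes 9 of 10 were lower, and 7 without that library. The epithelial sum ranged from 319 to 2609 CPM in normoxia and 245 to 2542 CPM in hyperoxia, so that the groups overlapped.

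**Figure D3:**
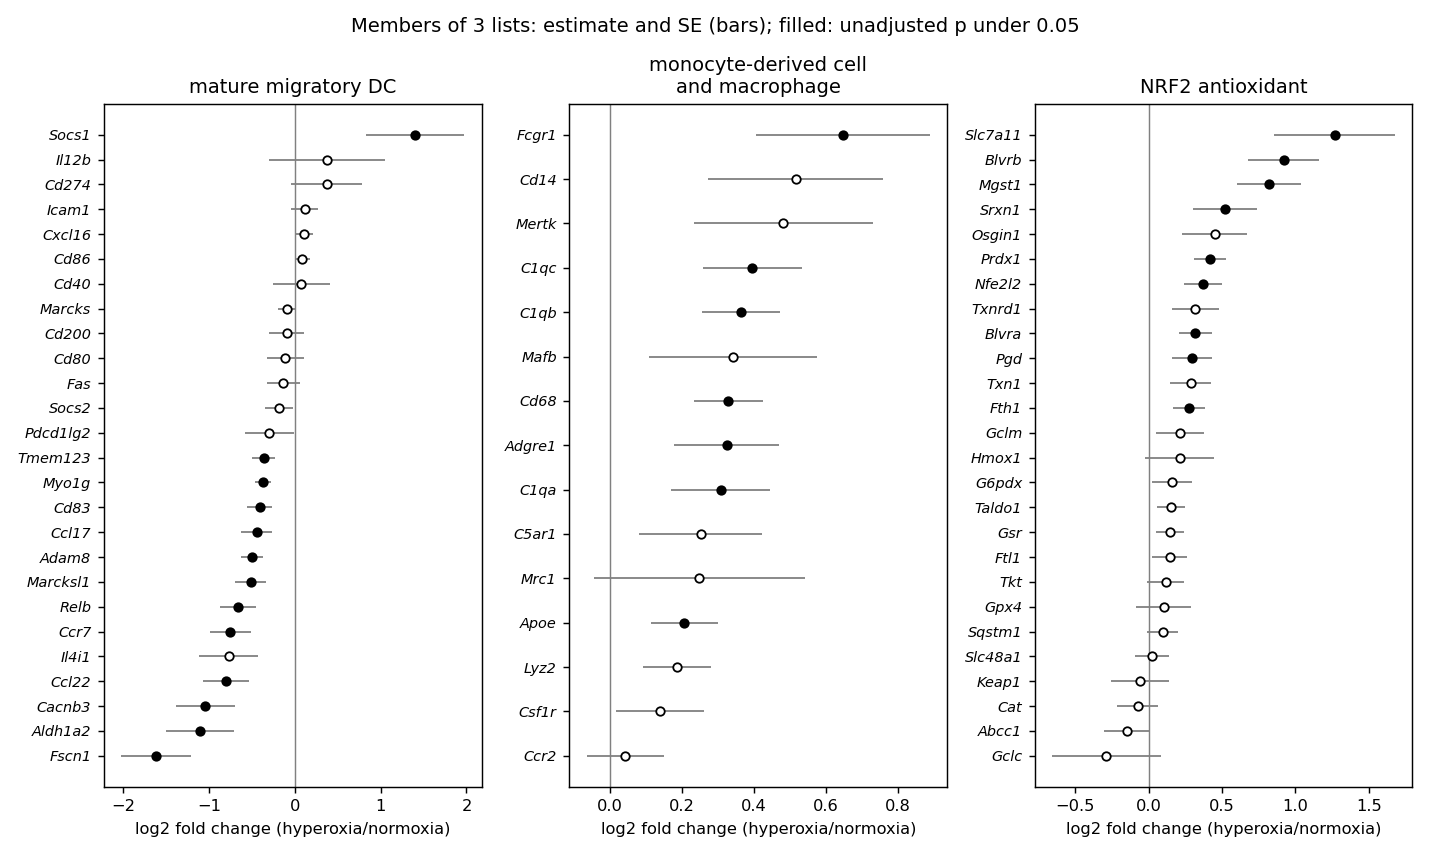
Log2 fold change of hyperoxia over normoxia in DCs (horizontal axes, points) with its SE (bars) for each tested member of the mature migratory DC, macrophage and NRF2 lists; filled points have an unadjusted p under 0.05. Most mature DC genes lie left of 0 with Fscn1 at -1.61, and all 15 macrophage genes lie right of 0.

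Antioxidant genes of the NRF2 pathway were higher as a group. Of 28 listed genes, 26 were tested, and 22 were higher and 4 lower, at a median log2 fold change of 0.21. At an unadjusted p under 0.05, 9 were higher, beside 4.11% of all genes, and 0 lower. None passed edgeR's adjusted test, and DESeq2 called Blvrb. The mean log2 CPM of the tested members was 7.10 to 7.38 in hyperoxic libraries and 6.91 to 7.0 in normoxic ones, without overlap. Within each of the 3 litters, 16 members were higher and 2 lower, where 31.2% of all genes had 1 sign in all 3. Without hyperoxia replicate 3, 21 were higher and 5 lower, the median was 0.16 and 4 were higher at an unadjusted p under 0.05, a level that 5.1% of all genes reached in either direction. With a covariate for detected genes, 23 were higher at a median of 0.13 and 3 reached that level, beside 3.63% of all genes.

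Prdx1, a peroxiredoxin that reduces hydrogen peroxide, measured 315, 383, 588, 312 and 422 CPM in hyperoxia and 243, 299 and 440.1 CPM as the lowest, median and highest normoxic values. Only replicate 3 lay above all normoxic libraries. The estimate was 0.42 (SE 0.11) and 0.37 without that library. Mgst1, a membrane glutathione transferase, had 105, 89.4, 363, 182 and 207 CPM against 77.8 to 177 CPM, with the litter 93 libraries inside the normoxic range and the other 3 above it, and a log2 fold change of 0.82 (SE 0.22). Slc7a11, the cystine importer that feeds glutathione synthesis, was higher by 1.27 (SE 0.41), with 287 CPM in replicate 3 and 137 CPM in replicate 5 beside 40.5 to 63.8 CPM in the others, and was 0.84 without replicate 3. Srxn1, which restores oxidised peroxiredoxins, was higher by 0.52 (SE 0.22), or 0.28 without that library, while the haem oxygenase Hmox1 had 0.21 (SE 0.23), and Gclc, the catalytic subunit of glutathione synthesis, had -0.29 (SE 0.37), which was -0.01 without it. Sod2, the mitochondrial superoxide dismutase kept on the NF-kB list, was higher by 0.62 (SE 0.17) and by 0.33 without hyperoxia replicate 3.

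NRF2 binds antioxidant response elements, of which the core was searched as TGACNNNGC on both strands of the 250 bases before each gene start, using RefSeq promoters of build GRCm38.p6. It was present in 7 of the 23 list members with a promoter entry (30.4%), beside 11.5% of all 27025 genes with one and 14.1% of the 8387 genes of the DC test that had one. The matches before the members Prdx1 and Mgst1, whose values are given above, are shown with the motif, which reads on the opposite strand in both, in capitals. They lie at chr4:116685446-116685494 and chr6:138140451-138140499 on the plus strand, and the motif starts 133 and 56 bases before the gene start.
Prdx1: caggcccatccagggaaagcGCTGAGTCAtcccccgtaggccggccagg
Mgst1: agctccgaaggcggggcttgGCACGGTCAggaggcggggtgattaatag
A match describes the letters only, and binding was not measured. The list was made of NRF2 pathway genes, so its share describes the list and not the response to oxygen. Slc7a11, Srxn1 and Blvrb, also higher by estimate, had no match.

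The targets of hypoxia-inducible factors were evenly split in direction, with 12 of the 24 tested genes higher and 12 lower and a median log2 fold change of -0.04. At an unadjusted p under 0.05, 3 were lower and 0 higher, where 4.75% and 4.11% of all genes were. A member with separated groups was Ankrd37, an ankyrin repeat gene that HIF induces in many cells. It measured 3.36, 4.16, 4.89, 6.26 and 2.09 CPM in hyperoxia, and 8.87, 11.3 and 15.2 CPM as the lowest, median and highest normoxic values. All hyperoxic libraries lay below all normoxic ones, where 0.284% of all genes did so. Ankrd37 had a log2 fold change of -1.39 (SE 0.34, edgeR adjusted p = 0.379), -1.34 without hyperoxia replicate 3, and within litters 93, 100 and 108 it was -1.29, -1.51 and -1.36. Bhlhe40, a transcriptional repressor, and Pfkfb3, a regulator of glycolysis, were lower by -0.43 (SE 0.14) and -0.37 (SE 0.16), whereas the glycolytic enzymes Aldoa and Eno1 had 0.18 (SE 0.09) and 0.17 (SE 0.13), and 0.12 and 0.06 without hyperoxia replicate 3.

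The core of the hypoxia response element, searched as ACGTG in the same windows on both strands, was found before 16 of the 23 listed HIF targets with a promoter entry (69.6%), 18.5% of all genes and 25.6% of the genes of the DC test. The list was made of HIF targets, so this share too describes the list and not the response to oxygen. Ankrd37, the member that results turn on here, held 2 copies on its own strand, the minus strand, at chr8:46000067-46000100 and chr8:45999851-45999876, starting 241 and 6 bases before the gene start. The motif is in capitals.
Ankrd37 distal: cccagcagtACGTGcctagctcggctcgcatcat
Ankrd37 proximal: gcacatgtcagtgtttgggtACGTGa

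Genes of lipid handling were more often higher than lower, 18 against 4 of 22 tested, at a median log2 fold change of 0.25. Besides Lpl, the members with an unadjusted p under 0.05 were Pparg, Npc2, Hilpda, Apoe and Apoc2, all higher, where 4.11% of all genes were. Pparg, a lipid-sensing nuclear receptor, measured 75.6, 65.1, 40.8, 133 and 94.0 CPM against 33.9 to 67.8 CPM in normoxia. Here hyperoxia replicate 3 was the lowest hyperoxic library, and the log2 fold change of 0.62 (SE 0.21) was 0.82 without it. Msr1, a scavenger receptor, was higher by 1.10 (SE 0.48), and Plin2, a lipid droplet coat protein, by 0.26 (SE 0.13). These estimates were 0.40 and 0.08 without hyperoxia replicate 3, and Hilpda went from 0.47 to 0.27. Without it 19 members were higher and 3 lower at a median of 0.15. Then 2 had an unadjusted p under 0.05, where 5.1% of all genes did in either direction.

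Interferon and inflammatory lists were highest in hyperoxia replicate 3. The interferon gamma list had 17 of 19 tested members higher at a median log2 fold change of 0.92, which was 0.11 without that library, with 12 higher and 7 lower. On this list hyperoxia replicate 5 also lay above all normoxic libraries, at a mean log2 CPM of 7.05 against 5.65 to 6.36. Replicates 1, 2 and 4 lay within that range. Without hyperoxia replicate 3, the type I interferon median of 0.11 became -0.21, with 7 higher and 19 lower, and the NF-kB median of 0.15 became -0.07. Iigp1, an interferon-induced GTPase, had the largest estimate on the interferon gamma list, 3.25 (SE 1.14), which was 1.48 without hyperoxia replicate 3. Cxcl9, a chemokine induced by interferon gamma, was too low in most libraries to be tested, at 1.12, 2.08, 230.4, 4.17 and 53.8 CPM in hyperoxia replicates 1 to 5. Within the NF-kB list, Sod2, Tnfaip2, Ccl3, Ccl4, Il1b and Il1rn were higher at an unadjusted p under 0.05, and Relb, Traf1, Rel and Birc3 lower. Over all genes, 4.11% were higher and 4.75% lower at that level. With hyperoxia replicate 3 left out, 2 members were higher and 3 lower at it, beside 5.1% of all genes in either direction. Ccl3, Il1b and Il1rn then went from 0.56, 0.57 and 1.02 to 0.35, 0.15 and 0.38.

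Receptors for microbial patterns were higher in 15 of 20 tested genes, at a median of 0.40 that was 0.06 without hyperoxia replicate 3. Clec4n, which encodes the fungal receptor dectin-2, was higher by 0.55 (SE 0.14), Ly96, the partner of TLR4, by 0.50 (SE 0.15), and Tlr1 and Tlr2 by 0.63 (SE 0.19) and 0.65 (SE 0.22). When that library was left out, Clec4n had 0.35, Ly96 0.43, Tlr1 0.39 and Tlr2 0.33. The members lower at an unadjusted p under 0.05 were Tlr11 and Tlr3, both also on the cDC1 list, where 4.75% of all genes were lower. Of 14 tested chemokines, 11 were higher and 3 lower, and 9 and 5 without hyperoxia replicate 3. The monocyte attractant Ccl2 was higher by 1.13 (SE 0.47). Il27, which encodes the p28 subunit of interleukin 27, was higher by 1.28 (SE 0.35), or 0.79 without hyperoxia replicate 3, and Icosl, a costimulatory ligand, lower by -0.66 (SE 0.23).

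Of 23 mitosis genes, 21 were higher and 2 lower at a median of 0.29. None had an unadjusted p under 0.05, where 4.11% of all genes were higher at that level. Without hyperoxia replicate 3, where mitosis genes were low, the median was 0.44. Then 8 had such a p, where 5.1% of all genes did in either direction. Respiratory chain genes were higher in 30 of 33, at a median of 0.17, led by Ndufa9 at 0.28 (SE 0.10) and Sdhb at 0.28 (SE 0.10). Of these, 5 were higher at an unadjusted p under 0.05, where 4.11% of all genes were. When hyperoxia replicate 3 was left out 1 was, where 5.1% of all genes reached that level in either direction. The summed level of these genes was highest in the libraries with the fewest counts of each group. These were normoxia replicate 3 (9450 CPM) and hyperoxia replicate 3 (9843 CPM). It was lowest in those with the most counts, normoxia replicate 6 (5859 CPM) and hyperoxia replicate 4 (6511 CPM). The part of depth in these values was not tested. Of 24 tested targets of p53, 13 were higher and 11 lower at a median of 0.03, which was 0.10 without hyperoxia replicate 3. At an unadjusted p under 0.05, 3 were higher and 0 lower, where 4.11% and 4.75% of all genes were. Ccng1, Bax and Cdkn1a, the cell cycle inhibitor p21, were higher by 0.41 (SE 0.12), 0.29 (SE 0.12) and 0.40 (SE 0.18). Immediate early genes had 4 higher and 14 lower at a median of -0.13, with Egr1 and Egr2 lower by -0.45 (SE 0.20) and -0.59 (SE 0.26). The list had, without hyperoxia replicate 3, 8 higher and 10 lower at a median of -0.02, and Egr1 and Egr2 had -0.23 and -0.84.

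Whether DCs responded differently from the other populations was tested on all 43 libraries, as the DC effect minus the mean effect in alveolar macrophages, Ly6Chi and Ly6Clo cells. In that fit the DC effect alone gave 0 calls (0%) of 12529 genes, with 488 at an unadjusted p under 0.05 (3.89%). For the difference, edgeR called 0 (0%), with 393 at an unadjusted p under 0.05 (3.14%). DESeq2 called 1 gene, Mreg, which encodes the vesicle transport protein melanoregulin, and limma voom called 0. In the edgeR fit, the DC effect on Mreg was -1.05 and its difference from the other populations was -2.73 (SE 0.60, adjusted p = 0.643). H2-M2 was next, with a difference of -6.28 (SE 1.43, adjusted p = 0.713), but in the normoxic libraries of the other populations it averaged at most 0.262 CPM. A difference from the other populations was thus not shown for any gene by edgeR.

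Set side by side in that fit, the leading DC genes had varied values elsewhere. For Lpl the log2 fold changes were 0.88 (SE 0.17) in DCs, 0.49 (SE 0.16) in alveolar macrophages, 0.60 (SE 0.18) in Ly6Chi and 0.43 (SE 0.17) in Ly6Clo cells, and the difference of 0.37 (SE 0.20) had an unadjusted p of 0.065. For Hgf they were 1.06 (SE 0.44), -0.58 (SE 0.52), -0.22 (SE 0.41) and -0.48 (SE 0.46), and the difference of 1.49 (SE 0.52) had an unadjusted p of 0.0064. Sort1 and Ldhb, the lactate dehydrogenase B chain, had differences of 0.51 (SE 0.14) and 0.77 (SE 0.24). For Relb the DC estimate was -0.61 (SE 0.31) beside 1.18 (SE 0.36) in Ly6Clo cells, with a difference of -1.24 (SE 0.37). Prdx1 and Blvrb were higher by estimate in all 4 populations, with differences of 0.01 (SE 0.15) and 0.07 (SE 0.31). Ankrd37 was lower by estimate in all 4, with -1.35 (SE 0.54) in DCs against -3.07 (SE 0.89), -1.69 (SE 0.52) and -2.89 (SE 0.70).

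**Figure D4:**
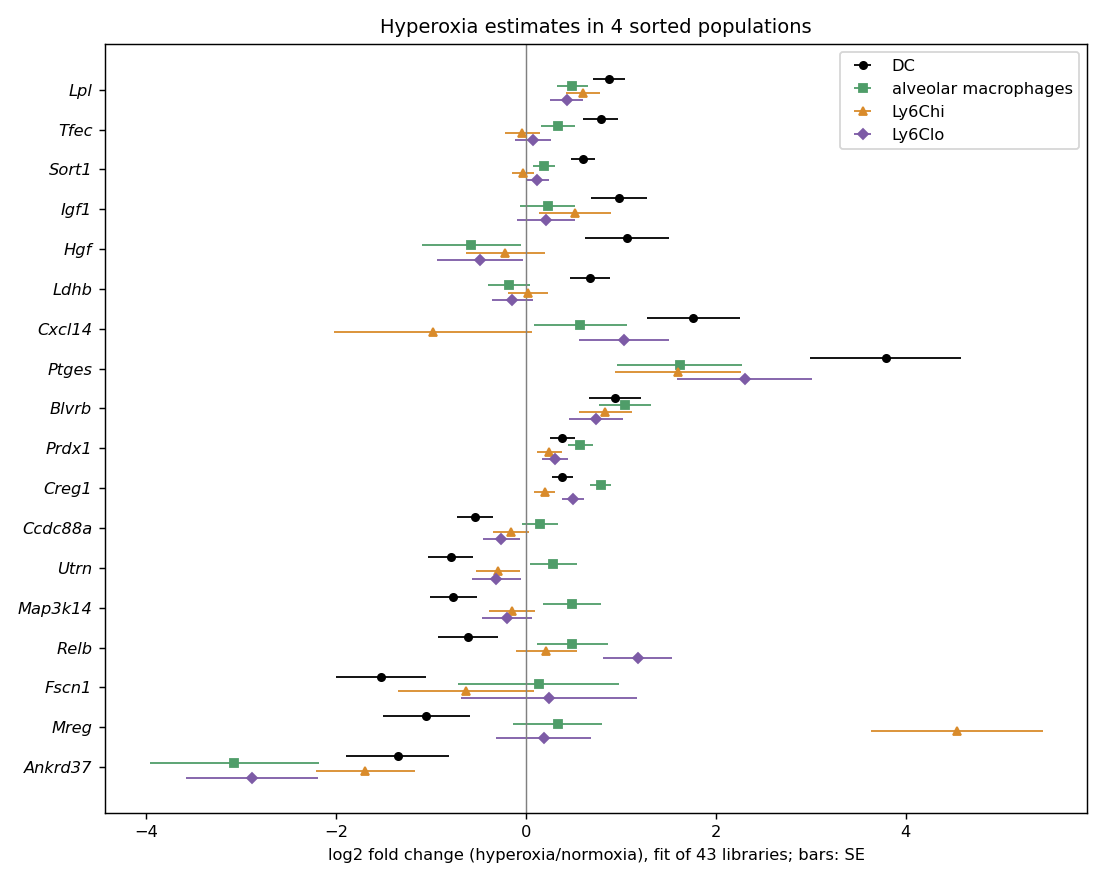
Log2 fold change of hyperoxia over normoxia (horizontal axis) with its SE (bars) for 18 genes in DCs and in the 3 other sorted populations, from 1 fit of 43 libraries. Lpl, Blvrb, Prdx1 and Creg1 lie right of 0 and Ankrd37 left of 0 in all 4 populations, whereas Hgf and Ldhb lie right of 0 mainly in DCs, a difference that did not pass the adjusted test.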

How the data were processed

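RNA of sorted cells was amplified with SMART-Seq V4 and made into Nextera XT libraries, per the labels' protocols. The values are raw counts per gene as deposited by the authors; TopHat, HTSeq 0.4.1, SAMtools, Picard, FastQC and build NCBIM37 are named in the submitters' processing notes, and strand, filters and annotation are not given in the sources used here. The table lists 37991 genes; 0.828% of counts lay in genes without a symbol, and 3 symbols are shared by more than 1 gene ID.

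Genes passed edgeR's filterByExpr (minimum count 10, minimum total 15), were scaled by TMM and tested with edgeR 4.0.16 (R 4.3.3), quasi-likelihood, robust, with litter as an additive term and Benjamini-Hochberg adjustment at 0.05. Levels are TMM-scaled CPM over the 11 DC libraries unless stated. The SE of a log2 fold change was taken from its F statistic. The difference between populations was fitted on 43 libraries with 8 group means and litter. DESeq2 1.42.0, limma 3.58.1, other scalings, filters, terms for sex (read from Xist and Y-linked genes) and for genes detected, and leaving out libraries or litters were the alternatives. The members, gene lists and tests were chosen with earlier results of these data known. Named genes were the 12 with the smallest p in each direction, genes called by an alternative tool, the first 3 members and the 4 with the smallest p of each list, and the 6 with the smallest p in each direction between populations; other list members named here were chosen after their values were seen. Scripts were tested on simulated data.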

Additional observations from a re-analysis of the deposited data

Results flagged for a closer look

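In groups of 5 or 6 DC libraries, 14 of 142 sets of values (9.86%) had 1 library farther from the rest than Dixon's critical value allows; chance alone flags about 1 set in 20. Of these, 6 were hyperoxia replicate 3. It had the highest mean log2 CPM of the type I interferon list, 7.41 against 5.76 to 6.08 in the other hyperoxic libraries, and of the NF-kB list, 7.17 against 6.32 to 6.51, and the lowest of the growth factor list, 5.62 against 5.80 to 5.87. It was also highest for Ptges at 224 CPM, S100a8 at 198 CPM and Gpr84 at 205 CPM, where the other hyperoxic libraries reached 44.9, 116 and 44.4 CPM.

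Normoxia replicate 3 was the lowest normoxic library for the ER stress list, at a mean log2 CPM of 6.15, and for Lair1, an inhibitory collagen receptor, at 153 CPM. It was the highest for the metallothionein and zinc list at 6.21, for Fxyd2 at 77.4 CPM and for Map3k14 at 120.0 CPM. Normoxia replicate 1 was lowest for the alveolar macrophage list, at 4.77. Normoxia replicate 2 was highest for Adam23 at 50.4 CPM, and hyperoxia replicate 2 highest for Adamdec1 at 265 CPM.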

How the results depend on the processing

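For hyperoxic against normoxic DCs, the count of 0 called genes became 24 with DESeq2 (16 higher, 8 lower), 1 (Lpl) with limma voom and sample quality weights, 369 with no filter on low counts (206 higher, 163 lower; 315 of them were tested with the filter too) and 2 (Serpina3f and Arg2) without litter 93. Leaving out 1 library gave 0 to 23 calls, and the 23 came without hyperoxia replicate 4. The other settings gave 0. Without the litter block the count was 0, with 520 genes at an unadjusted p under 0.05. That number was 998 with the block, 585 without hyperoxia replicate 3 and 409 after adding a covariate for how many genes were detected. For the difference between DCs and the other populations, the count of 0 became 1 with DESeq2 and 99 with no filter (55 higher, 44 lower); leaving out 1 DC library gave 0 to 0. The cause was not tested. All 32 genes with the smallest p or called by another tool kept their direction under each of the 26 settings.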
